A study of Mus musculus with 12 samples.

Results

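The large subunit ribosomal protein genes were followed in mouse B cells that carry either wild-type MYC (WT) or MYC with the point mutation T58A. Members were the genes named Rpl or Rplp with a number, pseudogene names left out, whose mean over the 6 libraries of at least 1 culture reached 10 normalised reads. Of 51 genes with such a name, 46 were members, out of 24015 genes measured in all, 23973 of them in both cultures. The groups were WT and T58A marrow B cells grown for 48 h with IL7, a growth factor for B cell precursors, and WT and T58A spleen B cells kept for 48 h in LPS, a cell wall component of bacteria to which mature B cells respond by dividing. Each of the 4 groups held 3 libraries, made from primary cells of WT and T58A littermate mice, and the titles number each WT and T58A library as a pair. No driver, Cre or other allele is named in the labels, and the point mutation itself cannot be read from counts per gene. The labels do not tie a library to an animal, so the spread between libraries, on which all p-values rest, may be technical in part.

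The large subunit of the cytosolic ribosome joins amino acids into protein, and its proteins fold around ribosomal RNA that is made and assembled in the nucleolus. Their messenger RNAs are among the most abundant in dividing cells and share a pyrimidine-rich 5′ end, the TOP motif, through which nutrient and growth signals control their translation. MYC is known as a driver of ribosome production, and the phosphorylation that T58A removes marks the MYC protein for degradation. Ribosomal protein genes have left many processed pseudogenes in mammalian genomes, which are near-identical, intronless copies of their messenger RNAs. A short read can then match a gene and its copies equally well.

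The copies are shown first, since reads from them and from the gene may not be told apart. In the GENCODE M21 annotation of GRCm38 (mm10), 45 of the 46 members had at least 1 other gene whose transcript matched their coding sequence at 95% identity or more over at least 80% of its length. Those 364 matches were pseudogenes in 352 cases, with a median of 5 per member and up to 57 for Rpl21, and only Rpl8 had none. For 19 members no 50-base stretch of the coding sequence was unique among all annotated transcripts, while in 6 members at least 50% of such stretches were unique. Over whole transcripts, untranslated ends included, the unique share ran from 6.68% in Rpl9 to 94.8% in Rpl22, with a median of 50.8%. Each gene below is set beside the closest copy, as 60 coding bases of the GENCODE transcripts, 5′ to 3′, with the bases that differ in capitals. They are the member with the largest difference between genotypes (Rpl37a), the one that passed the test in IL7 cultures (Rpl6), a member with its copy measured as a gene of its own (Rpl14), and the member with the largest unique share (Rpl22).
Rpl37a: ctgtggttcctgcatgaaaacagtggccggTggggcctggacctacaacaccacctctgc
Gm4149: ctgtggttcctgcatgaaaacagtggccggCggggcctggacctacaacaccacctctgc
Rpl6: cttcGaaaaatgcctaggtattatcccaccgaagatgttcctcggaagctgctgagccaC
Gm6136: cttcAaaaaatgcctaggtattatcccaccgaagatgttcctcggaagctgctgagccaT
Rpl14: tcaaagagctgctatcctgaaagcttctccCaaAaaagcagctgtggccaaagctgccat
Rpl14-ps1: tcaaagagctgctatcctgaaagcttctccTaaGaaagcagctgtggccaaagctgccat
Rpl22: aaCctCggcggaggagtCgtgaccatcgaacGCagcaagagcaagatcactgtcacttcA
Gm12005: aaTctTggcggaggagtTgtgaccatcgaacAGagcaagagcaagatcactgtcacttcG
Rpl37a, on chromosome 1 from 72711290 to 72713813 on the plus strand, shows its coding bases 168 to 227, and it differed from Gm4149, on chromosome 13, at 1 of 276 aligned bases. Rpl6, on chromosome 5 from 121204481 to 121209241, shows bases 349 to 408 and differed from Gm6136, on chromosome 1, at 4 of 891 bases. Rpl14, on chromosome 9 from 120571444 to 120574654, shows bases 390 to 449 and differed from Rpl14-ps1, on chromosome 7, at 7 of 654 bases. Rpl22, on chromosome 4 from 152325742 to 152334071, shows bases 163 to 222 and differed from Gm12005, on chromosome 11, at 16 of 377 bases. The stretches for Rpl37a and Gm4149 are thus the same but for the single capital letter, whereas Rpl22 and its copy differ at 6 of the 60 places shown. How reads that match several places were counted is not given in the sources used here.

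Copies also had values of their own where they were listed as genes. Rpl14-ps1 stood between 5464 and 6069.7 normalised reads in the IL7 libraries, while Rpl14 itself stood between 1308 and 1488. Rpl26, whose product sits at the exit of the protein tunnel, was listed at 0 in all 12 libraries, and so was its copy Gm15772. Rpl10l was listed at 0 throughout as well. The other names that missed the minimum were Rpl30 (mean 6.67 in IL7 and 1.66 in LPS cultures), Rpl39l (0 to 16.7 and 0 to 15.1 over the libraries) and Rpl3l (7.97 and 1.77). The member nearest to the minimum was Rpl29, with 6.20 to 14.3 normalised reads in IL7 libraries and 3.91 to 19.2 in LPS libraries. Rpl29 did not pass the filter on low counts in LPS cultures, so 46 members were tested in IL7 cultures and 45 in LPS cultures.

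The libraries held 8486753 to 10201113 reads assigned to genes in IL7 cultures and 5110746 to 9332410 in LPS cultures, and 3 reads corresponded to 2.15 to 4.12 normalised reads. The B cell marker Cd79a stood at 5929 to 9325 normalised reads in IL7 WT, 4783 to 5548 in IL7 T58A and 7266 to 9325 in LPS libraries. Of 10 B lineage markers tested in IL7 cultures, 5 were called lower in T58A (limma, pair as block) and 0 higher. Among all genes there, 6.31% were called lower. Of 4 markers of mature or activated B cells tested there, 2 were called lower, with a median log2 change of −1.75. Without the block 0 of these markers were called, and their part in the members' levels was not tested. Vpreb1, of the surrogate light chain of precursor B cells, stood at 3165 to 4464 in IL7 libraries and at 4.32 or below in LPS libraries. Of the T and NK cell markers, Cd3e stayed at or below 4.30, and Cd4, Cd8a and Nkg7 at or below 9.28. Thy1, however, stood at 386 to 1101 in IL7 libraries, Il2rb at 41.6 to 165 in LPS libraries, and Cd3g reached 49.5 in LPS WT 1. The myeloid markers Lyz2, S100a9, S100a8 and Mpo were highest in IL7 WT 3, at 680, 500, 227 and 109. Itgam stood at 338 to 716 in LPS libraries, while Cd14, Fcgr3, Elane and Csf1r stayed at or below 50.6. The share of other cell types was not tested. Xist, which is made from the inactive X chromosome of females, stood at 11281 to 23674 in WT 1 and WT 2 of both cultures and at most 26.9 in the other 8 libraries, so sex moves with genotype in pairs 1 and 2 but not in pair 3. IL7 WT 2 also held 58.9 normalised reads of the Y-linked Eif2s3y, against 645 to 904 in the 4 IL7 libraries with little Xist and 1.86 in IL7 WT 1. For LPS cultures, 1 header stands over 2 T58A columns, so the labels do not say which pair each belongs to. Over all genes tested, the deviations from the group means correlated at 0.34 and 0.66 with the first column beside WT 1 and the second beside WT 2, and at −0.23 and −0.22 with the 2 exchanged. Over the members alone the same correlations were −0.01 and −0.04, and 0.13 and 0.01 with the 2 exchanged. Below, these are the first and second unnumbered T58A libraries, in column order.

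Together the 46 members took 0.879% to 0.973% of the reads in IL7 libraries and 1.28% to 2.43% in LPS libraries. Per kilobase of transcript their mean levels in IL7 cultures ran from 13.9 normalised reads for Rpl29 to 19476 for Rpl8, with a median of 443, and 13 members exceeded 1000. In LPS cultures they ran from 10.9 for Rpl29 to 22784 for Rpl4, with a median of 368, and 16 members exceeded 1000. Rpl8, Rpl4 and Rplp1 were the 3 highest in both cultures, at 19476, 17101 and 9920.3 per kilobase in IL7 and 19599, 22784 and 14514 in LPS. Rpl4, Rpl8, Rplp0, Rpl13a and Rplp1 alone gave 69.9% of the members' normalised reads in IL7 cultures and 68.5% in LPS cultures. At the low end stood Rpl29, Rpl34 and Rpl37 in IL7 cultures and Rpl29, Rpl34 and Rpl21 in LPS cultures. The order of the members was much alike in the 2 cultures (Spearman's rho 0.945 over 46 genes, a description across genes that share libraries). The tables were normalised separately, so a level in one culture cannot be read as higher or lower than in the other. Levels per kilobase tended to be lower in members with more near-identical copies (rho −0.45 in IL7 and −0.38 in LPS cultures), a relation across genes whose cause was not tested.

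**Figure D1:**
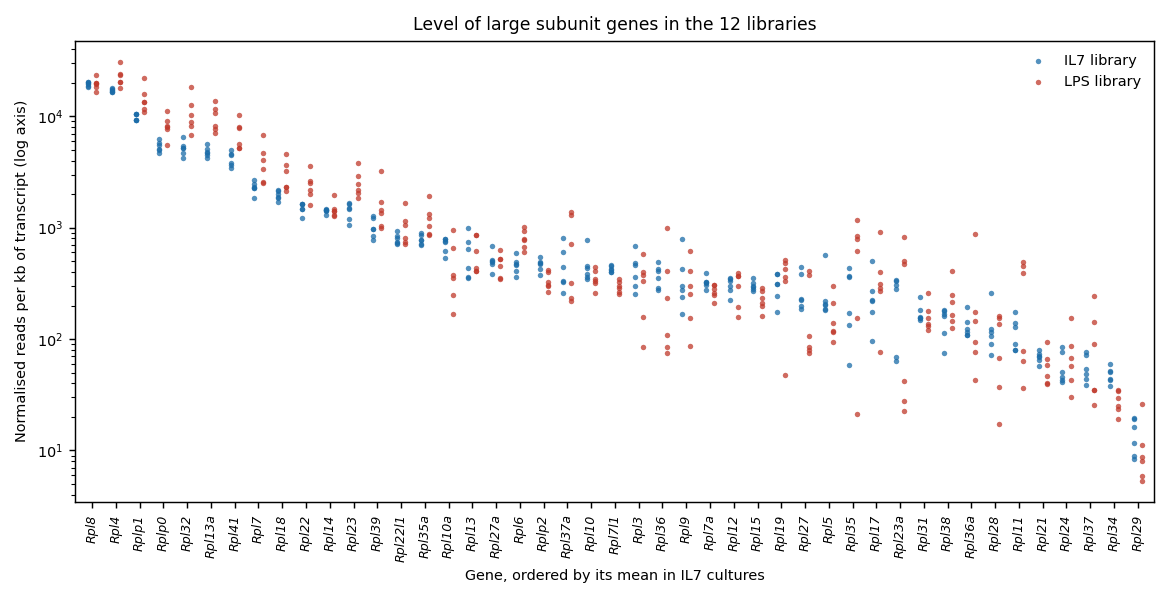
Level of the large subunit genes (all members but 1) in the 12 libraries, in normalised reads per kilobase of transcript on a log axis, with genes in order of their mean in IL7 cultures (blue, 6 libraries; red, 6 LPS libraries). Rpl8 and Rpl4 stand highest and Rpl29 lowest, and the points of genes such as Rpl23a, Rpl35 and Rpl36a are spread widely in LPS cultures.

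In IL7 cultures the changes of the large subunit genes with T58A lay on both sides of 0. Of the 46, only Rpl6 passed the test, lower in T58A, and 0 members rose. Among all 11604 genes tested, 12.7% were called (6.41% higher and 6.31% lower in T58A), so 1 of 46 members is below that background. That count rests on all 3 pairs: with either library of pair 1 left out, 3 members were called higher and 7 lower, and the genes called were 1407 of 11679 without WT 1 and 1435 of 11818 without T58A 1. The median change of the members was 0.03 on the log2 scale, with 24 of 46 above 0, beside a median of −0.01 and 49% above 0 over all genes. All these changes come from limma with the pair as a block, on log2 of normalised reads plus 1, with Benjamini-Hochberg adjustment over all genes at 0.05. Within the pairs the members' medians were 0.03, 0.09 and −0.04.

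Rpl6 held 752, 625 and 602 normalised reads in WT 1, 2 and 3 and 589.6, 459.9 and 519 in T58A 1, 2 and 3. Every T58A library was below every WT library. The change was −0.34 ± 0.08 (log2, SE), which is 0.793 of the WT level, with an adjusted p of 0.0354 by limma. It was −0.21 in pair 3, the pair without a difference in sex. Without the block the adjusted p of Rpl6 was 0.259, and with either library of pair 2 or of pair 3 left out it was between 0.0599 and 0.162. Without the block, limma called 0 of 11604 genes, although 1960 had an unadjusted p under 0.05. In fits with the block on the recovered reads, edgeR also called Rpl6 alone, where 12.3% of all genes were called (5.77% higher and 6.5% lower). DESeq2 called 0 members, where 9.07% of all genes were called (4.4% higher and 4.68% lower).

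Rpl22, which is needed for T cell development as well as being part of the ribosome, was the only other member whose T58A libraries were all lower. It held 3368, 3329 and 3319.8 normalised reads in WT and 2992, 3023 and 2494 in T58A. The 3 WT libraries were close to each other and T58A 3 was lowest, and the change of −0.24 ± 0.07 did not pass (adjusted p = 0.0635, limma). Rpl7 held 2857, 3089 and 2627 in WT and 2615, 2715 and 2149.6 in T58A. These groups overlapped only through WT 3 and T58A 2, and the change was −0.20 ± 0.06 (adjusted p = 0.0751, limma). Members whose groups did not overlap numbered 2 higher and 2 lower in T58A, against 12.9% and 10.8% of all genes.

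The members with the smallest p on the higher side in IL7 cultures were Rpl13, Rpl10a, Rpl36, Rpl7l1 and Rpl31, none of which passed. Rpl13 held 341, 278 and 580.3 normalised reads in WT and 501, 279 and 777 in T58A. Its pairs differed from each other more than its genotypes did, and the change was 0.33 ± 0.12 (adjusted p = 0.101, limma). Rpl10a held 510.5, 444 and 633 in WT and 652, 660.4 and 617 in T58A, where WT 3 lay within the T58A range. Rpl36 held 156, 111 and 106 in WT and 164, 189 and 136 in T58A, and the groups overlapped by WT 1. Rpl7l1, a paralog of Rpl7 that acts in ribosome assembly, was at 1084, 1036 and 1041 in WT and 1169, 1111 and 1209.8 in T58A. Those groups did not overlap, yet the change was small at 0.14 ± 0.07 (adjusted p = 0.206, limma). Rpl34 also showed no overlap, at 23.6 to 27.5 in WT and 31.4 to 37.2 in T58A, with as few as 25 reads in a library.

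In LPS cultures 42 of the 45 members tested had a higher mean log2 level in T58A, with a median change of 0.42, while over all 11291 genes 52.4% were above 0 and the median was 0.01. No member was called by limma, and neither was any other gene (0% of all genes, with 284 genes and 9 members at an unadjusted p under 0.05). The groups did not overlap, with T58A higher, for 7 members (Rpl37a, Rpl12, Rpl27a, Rpl31, Rpl6, Rpl19 and Rpl14), where 3.1% of all genes showed this. No member was lower without overlap, against 3.3% of all genes. The 3 members with a change below 0 were Rpl7a (−0.12), Rpl36a (−0.09) and Rpl34 (−0.02). The size of the changes leans on 1 library: without the first unnumbered T58A library, the median was 0.21 and 38 of 45 members were above 0. Over all genes in that fit the median was 0.002 and 50.5% were above 0. In pair 3 alone, where both libraries are of 1 sex, the median was 0.25 and 34 of 46 members were higher in T58A.

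**Figure D2:**
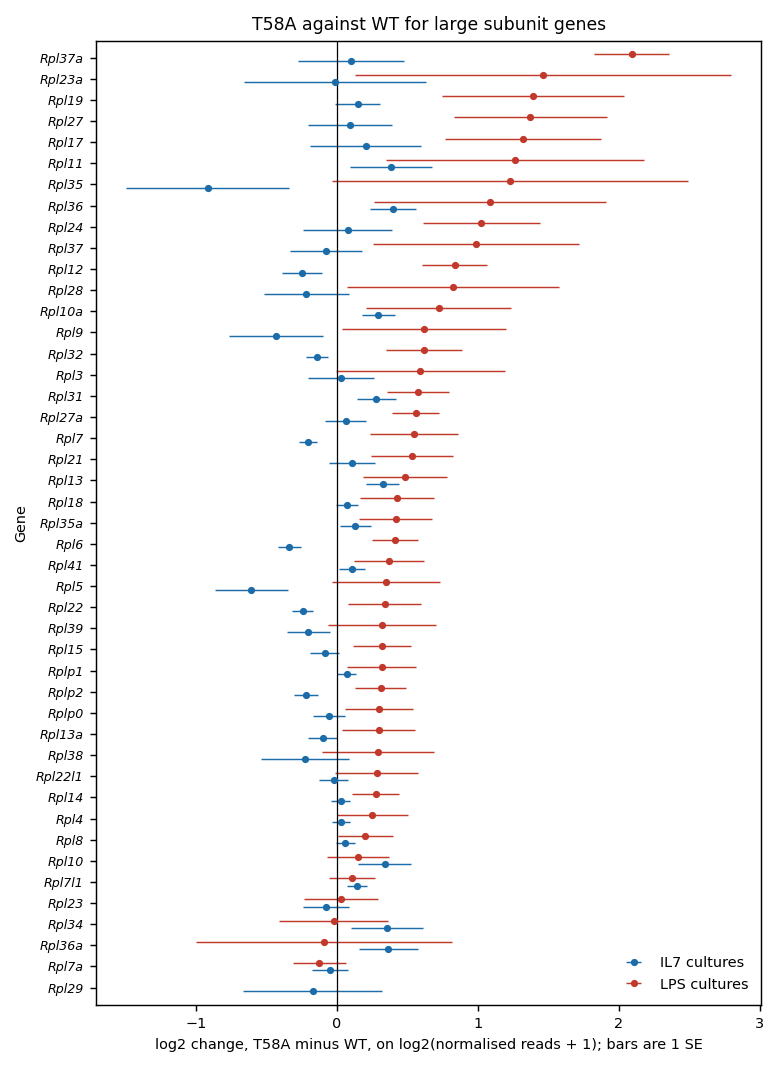
Change of the large subunit genes (all members but 1) between T58A and WT, as the log2 difference on normalised reads plus 1 (bars, 1 SE), in IL7 cultures (blue) and LPS cultures (red; Rpl29 was not tested there), ordered by the change in LPS. The IL7 points lie on both sides of 0, while the LPS points lie above 0 but for Rpl7a, Rpl36a and Rpl34, many with long bars.

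Rpl37a, a small zinc-binding protein of the large subunit, differed most between the genotypes in LPS cultures. It held 177, 131 and 123 normalised reads in WT 1, 2 and 3, and 729.7, 764 and 401 in the first unnumbered, the second unnumbered and T58A 3 library. The lowest T58A library was thus above 2 times the highest WT library, and the change was 2.09 ± 0.27, or 4.26-fold, with an adjusted p of 0.259 (limma). It passed when the pair was a block and the first unnumbered library was paired with WT 1 (adjusted p = 0.00321, limma, 1 member called, where 0.0354% of all genes were called, 0.0177% higher and 0.0177% lower). It did not pass with the unnumbered libraries exchanged, the pairing with negative correlations over all genes though not over the members, where 0 genes were called. It was also the single gene of 11291 that DESeq2 called without a block (0.00886%). In IL7 cultures the same gene was at 455, 143 and 186 in WT and 182, 337 and 245 in T58A, with full overlap and a change of 0.10 ± 0.38.

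Rpl12, a protein at the base of the stalk, held 239, 374 and 196 normalised reads in LPS WT libraries and 455, 487 and 455 in T58A libraries. The 3 T58A libraries were within 1.07-fold of each other and all above WT, with a change of 0.84 ± 0.23 (adjusted p = 1, limma). Rpl27a held 521, 400.2 and 411 in WT and 736, 612 and 612 in T58A, a change of 0.56 ± 0.17. Rpl31, at the exit tunnel, held 137, 143 and 126 in WT and 270.0, 163 and 187 in T58A, a change of 0.58 ± 0.22. Rpl6, which had been lower with T58A in IL7 cultures, held 990.4, 775 and 847 in LPS WT libraries and 1299.7, 1176 and 1007 in T58A libraries. Its LPS groups did not overlap in the other direction, with a change of 0.41 ± 0.16 (adjusted p = 1, limma).

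Calls in LPS cultures depended on how the pair was used. With the pair as a block and the first unnumbered library beside WT 1, edgeR on the recovered reads called 3 members (Rpl37a, Rpl27a and Rpl17) and DESeq2 called 12, all higher, where 0.142% and 0.735% of all genes were called higher and 0.345% and 2.02% in either direction. The authors' deposited table also gave 12 members as higher and 0 as lower, among 28 members with an adjusted p, where 1.49% of the genes with an adjusted p were higher and 2.71% lower. Among the 12 were Rpl37a, Rpl32, Rpl7, Rpl12, Rpl27a, Rpl10a, Rpl18, Rpl22, Rpl6, Rplp1 and Rpl41. The other 18 members had a p but no adjusted p in the authors' deposited table, in which the lowest mean of a gene with an adjusted p was 293 normalised reads. For IL7 cultures the authors' deposited table called 0 of the 45 members with an adjusted p, where 9.64% of genes were called. The authors' deposited table gave Rpl37a a log2 fold change of 1.57 in LPS cultures, its largest among the members.

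**Figure D3:**
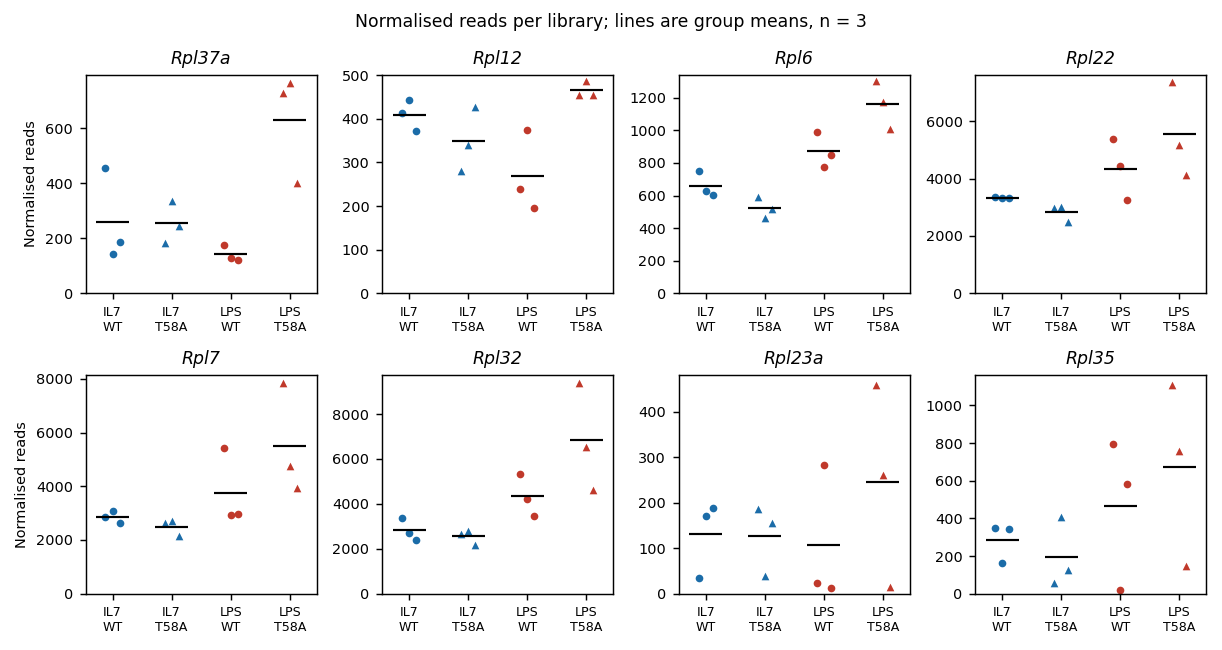
Normalised reads of 8 large subunit genes in each library of the 4 groups (circles, WT; triangles, T58A; blue, IL7; red, LPS; lines, group means, n = 3; LPS T58A points in the order first unnumbered, second unnumbered, T58A 3). Rpl37a and Rpl12 are separated by genotype in LPS cultures, Rpl6 and Rpl22 are lower in T58A in IL7 cultures, and Rpl23a and Rpl35 vary within a genotype more than between them.

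The summed level of the members in LPS cultures was 122610, 101711 and 88362.5 normalised reads in WT 1, 2 and 3, and 165618, 121571 and 105078 in the first unnumbered, second unnumbered and T58A 3 library. The first unnumbered library stood apart on the high side, and both other T58A libraries were below WT 1, so the groups overlapped. The 5 plasmablast markers tested (Xbp1, Prdm1, Irf4, Sdc1 and Igj, genes of antibody-secreting cells) all had a change below 0, with a median of −0.60 and none called. Their sum was 83441, 31938 and 84330 in WT and 34508, 19399 and 57062 in T58A, so the genotypes overlapped through WT 2. In bulk RNA, fewer cells of a type and less RNA per cell cannot be told apart, and the part of the plasmablast markers, of sex and of the first unnumbered library in the members' levels was not tested.

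The test of the difference between the cultures, over all 12 libraries, gave the members a median of 0.52 (LPS change minus IL7 change), with 41 of 46 above 0, beside a median of 0.03 and 53.9% above 0 over all genes. This test treats the IL7 and LPS libraries as independent, and the labels do not say whether same-numbered ones share animals. Without a block, limma called 0 of 46 members and 0 of 12184 genes, with 551 genes and 5 members at an unadjusted p under 0.05. With the pair as a block and the first unnumbered library beside WT 1, Rpl7, Rpl6, Rpl32, Rpl22 and Rpl12 were called, all with a higher change in LPS cultures, where 3.06% of all genes were called (2.42% higher). With the unnumbered libraries exchanged, 0 genes were called, and DESeq2 without a block called 0 members and 0.041% of all genes. Leaving out the first unnumbered library took the median difference to 0.21. Rpl32 shows the pattern without a call by limma on all libraries of either culture, though the authors' deposited table called it higher in LPS cultures. It held 3371, 2693 and 2403 normalised reads in IL7 WT and 2679.9, 2798 and 2173 in IL7 T58A, and 5333, 4222 and 3476 in LPS WT and 9386, 6526 and 4617 in LPS T58A. Its groups overlapped in both cultures.

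By role, the 3 proteins of the stalk, the arm that recruits elongation factors, had changes between −0.22 and 0.32 in the 2 cultures. Rplp0 ran from 6317 to 8571 normalised reads in IL7 WT, from 6718 to 7836 in IL7 T58A, from 7548 to 12443 in LPS WT and from 10992 to 15259 in LPS T58A. Rplp1 ran from 4606 to 5242, 4663 to 5278, 5492 to 7856 and 6657 to 10902 in the same order. Rplp2 had lower counts, at 526, 465 and 455 in IL7 WT and 473, 409 and 364 in IL7 T58A. Its IL7 groups overlapped through WT 2 and WT 3, with a change of −0.22 ± 0.09 (adjusted p = 0.134, limma), and its LPS change was 0.31 ± 0.18. None of the 3 was called by limma in either culture, while Rplp1 is among the 12 called higher in the authors' deposited table for LPS cultures.

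Rpl5 and Rpl11 form, with the 5S ribosomal RNA, a particle that also binds MDM2 and so links ribosome assembly to p53. Rpl5 held 449, 1152 and 416 normalised reads in IL7 WT and 381, 376 and 425 in IL7 T58A. Only WT 2 stood out, the library that also held 611 reads of Igj against at most 105 in the other IL7 libraries, and the change of −0.61 ± 0.26 was not called (adjusted p = 0.155, limma). Without that pair, whose WT library sets it, Rpl5 differed by −0.24 in pair 1 and 0.03 in pair 3. Rpl11 held 374, 30.3 and 53.1 in LPS WT and 325, 406 and 65.5 in LPS T58A, so high and low libraries were found in both genotypes and the change was 1.27 ± 0.92.

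Of the proteins that surround the peptidyl transferase centre, Rpl4 and Rpl8 were among the most evenly counted members in IL7 cultures. Their within-genotype SD of log2 normalised reads was 0.04 and 0.05 there. In LPS cultures it was 0.15 for Rpl8, the lowest of the members, and 0.27 for Rpl4. Rpl4 held 26089, 26263 and 25673 normalised reads in IL7 WT and 27082, 27363 and 25336 in IL7 T58A, within 1.08-fold in each genotype. Rpl8 held 17124, 15962 and 15602 in IL7 WT and 16558, 17199.5 and 16997 in IL7 T58A. In LPS cultures their changes were 0.25 ± 0.25 and 0.20 ± 0.20, at adjusted p of 1 (limma). Rpl3, which carries the loop nearest the catalytic centre, ranged from 114 to 513 in LPS WT and from 215 to 776 in LPS T58A. Rpl10, which joins the subunit late in its maturation, was at 205 to 329 in LPS WT and 252 to 354 in LPS T58A. For Rpl3 and Rpl10 the LPS changes were 0.59 ± 0.60 and 0.15 ± 0.22.

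Several members sit at the exit tunnel, where new protein leaves the ribosome, and the 5 given here were in part chosen for their values. Rpl23a held 23.4, 284 and 12.8 normalised reads in LPS WT and 458, 262 and 15.6 in LPS T58A, so each genotype held very low and high libraries. Rpl35 held 793, 19.9 and 583 in LPS WT and 1108, 756 and 148 in LPS T58A, with WT 2 far below the rest. Rpl19 held 35.4 in WT 3 and up to 271 in the other WT libraries, against 362, 320.4 and 384 in T58A, with a change of 1.39 ± 0.65. Rpl17 was at 243, 59.6 and 210.3 in WT and 707, 222 and 308 in T58A, where only WT 1 overlapped T58A, with a change of 1.32 ± 0.55. Rpl39, a short protein of the tunnel wall, ranged from 629 to 1044 in WT and from 610.2 to 1983 in T58A. None of these 5 was called by limma in either culture.

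The paralog pairs kept their own levels. Rpl22l1, the paralog that can replace Rpl22, held 410.2, 448 and 462 normalised reads in IL7 WT and 400.2, 516 and 396 in IL7 T58A, with a change of −0.02 ± 0.10 beside −0.24 ± 0.07 for Rpl22. In LPS cultures Rpl22 held 5367, 4428 and 3244 in WT and 7381, 5159 and 4111 in T58A, with overlap, and Rpl22l1 held 636, 448 and 413 against 914, 588 and 395. Rpl7l1 in LPS cultures was at 753, 687 and 775 in WT and 893, 661 and 849.7 in T58A, a change of 0.11 ± 0.16, while Rpl7 was at 5412, 2929 and 2964 against 7867, 4749.5 and 3929.8, a change of 0.55 ± 0.31. Rpl36al, a gene of the same subunit whose name the rule misses, had changes of −0.14 in IL7 cultures and 0.03 in LPS cultures, neither called.

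None of the other members was called in LPS cultures by limma. Rpl18, called higher in the authors' deposited table, ran from 1445 to 2205 normalised reads in WT and from 1572 to 3133 in T58A, with overlap. Rpl27 held 52.2, 45.8 and 65.9 in WT and 233, 48.7 and 248 in T58A, so the second unnumbered library stayed within the WT range and the change was 1.37 ± 0.54. Rpl37 and Rpl24, among the members with the lowest levels per kilobase, had changes of 0.99 ± 0.73 and 1.03 ± 0.42. Rpl9, the member with the smallest unique share, held 64.6, 114 and 451 in WT and 219.6, 186 and 298 in T58A, where WT spanned the whole T58A range. Rpl7a held 229, 259 and 278 in WT and 238, 282 and 192 in T58A, a change of −0.12 ± 0.19. For Rpl15, Rpl21, Rpl23, Rpl28, Rpl35a, Rpl38 and Rpl41 the changes ran from 0.03 (Rpl23) to 0.83 (Rpl28), and all 7 overlapped.

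The spread between libraries of 1 genotype was described for every member. The median within-genotype SD of log2 normalised reads was 0.23 in IL7 cultures (0.04 for Rpl4 to 1.29 for Rpl23a) and 0.42 in LPS cultures (0.15 for Rpl8 to 2.45 for Rpl23a), beside medians of 0.17 and 0.26 over all genes tested. Among members with a mean of at least 100 normalised reads, 2 of 39 had an SD over 1 in IL7 cultures and 9 of 41 in LPS cultures. Among all genes of that level these shares were 0.257% of 8944 and 0.511% of 8410. In LPS cultures 10 members differed more than 5-fold between libraries of 1 genotype, and in IL7 cultures 3 did, while 21 and 31 members stayed under 2-fold within both genotypes. Rpl36a held 424 normalised reads in LPS WT 2 and 20.6 to 85.1 in the other 5 LPS libraries. Over the members alone, the same-numbered libraries of IL7 cultures deviated from their group means with correlations of −0.41, −0.45 and 0.16, against 0.41, 0.15 and 0.40 over all genes tested.

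Members with less unique transcripts had the larger median spread. The 24 members with at least 50% unique 50-base stretches had a median SD of 0.21 in IL7 and 0.39 in LPS cultures, and the members with less had 0.35 (22 members) and 0.64 (21 members). In LPS cultures an SD over 1 was found in 3 of 24 and in 7 of 21. Across members Spearman's rho between the unique share and the SD was −0.46 in IL7 cultures (46 genes) and −0.42 in LPS cultures (45 genes), a description of genes that share libraries and differ in depth. Exceptions ran both ways, since Rpl35 has 59.9% unique stretches and an LPS SD of 2.33, and Rpl7a has 33 copies and an LPS SD of 0.22. The lean of the LPS changes was present in both classes: 23 of the 24 more unique members were above 0 with a median of 0.33, and 19 of the 21 others with a median of 0.55. The classes rest on a single transcript per gene, untranslated ends included, and do not set genes with copies apart from genes without. Rpl12, Rpl21 and Rpl31, among others, are in the more unique class with 0% of their coding stretches unique. Rpl37a is also in the more unique class, with 61.5% unique stretches overall but 18.3% of its coding stretches. In IL7 cultures the medians of the 2 classes were −0.08 and 0.09.

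**Figure D4:**
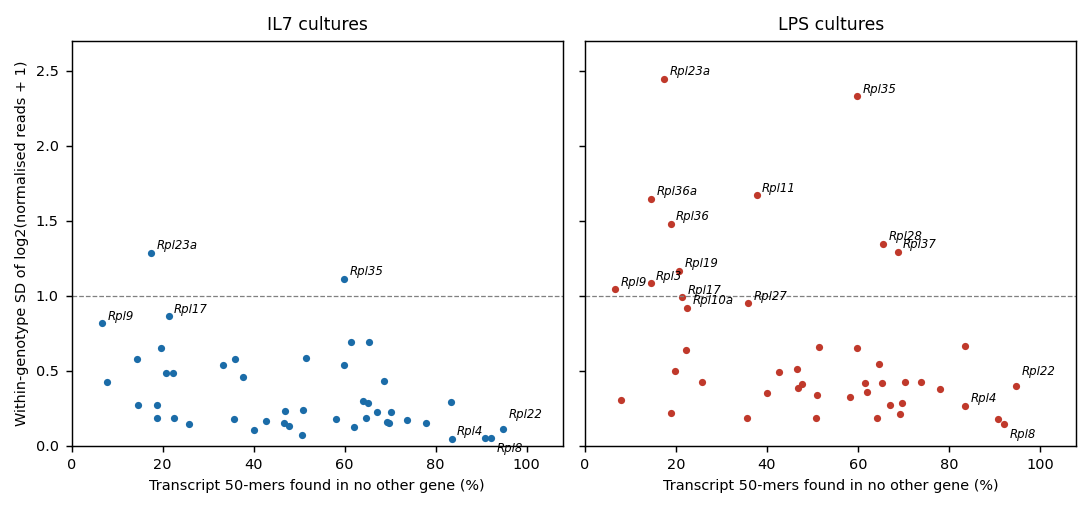
Within-genotype SD of log2 normalised reads plus 1 for each large subunit gene against the share of 50-base stretches of its transcript that occur in no other annotated gene, in IL7 (46 genes) and LPS cultures (45 genes); the dashed line marks an SD of 1. Rpl4 (83.5% unique) has the lowest SD in IL7 cultures and Rpl8 (92.1%) the lowest in LPS cultures, while Rpl23a and Rpl35 lie highest in both cultures.

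Neighbouring groups of genes were counted in the same fits, in which 6.41% of all genes were called higher and 6.31% lower in IL7 cultures, and 52.4% lay above 0 in LPS cultures. Of the small subunit ribosomal protein genes, 2 were called higher and 2 lower of 32 in IL7 cultures (median −0.05), and in LPS cultures 0 of 33 were called, with 29 above 0 and a median of 0.34. Of the 45 tested factors that assemble the large subunit, 16 were called higher and 0 lower in IL7 cultures, with a median of 0.24 and 41 above 0. Heatr3, which carries Rpl5 into the nucleus, changed by 0.51 ± 0.08 (adjusted p = 0.00984, limma), and Nop2, a methyltransferase of ribosomal RNA, by 0.41 ± 0.07 (adjusted p = 0.0117, limma). In LPS cultures 0 assembly factors were called, with 39 of 45 above 0 and a median of 0.17. Other TOP messenger RNAs, such as those of elongation factors, had 2 of 14 called higher in IL7 cultures (Eif4b and Pabpc1, median 0.11) and 0 of 15 in LPS cultures (all 15 above 0, median 0.27). Mitochondrial ribosomal protein genes had 3 of 77 called higher in IL7 cultures (median 0.07) and 0 in LPS cultures (47 above 0, median 0.04). Without the block all of these IL7 counts were 0.

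**Figure D5:**
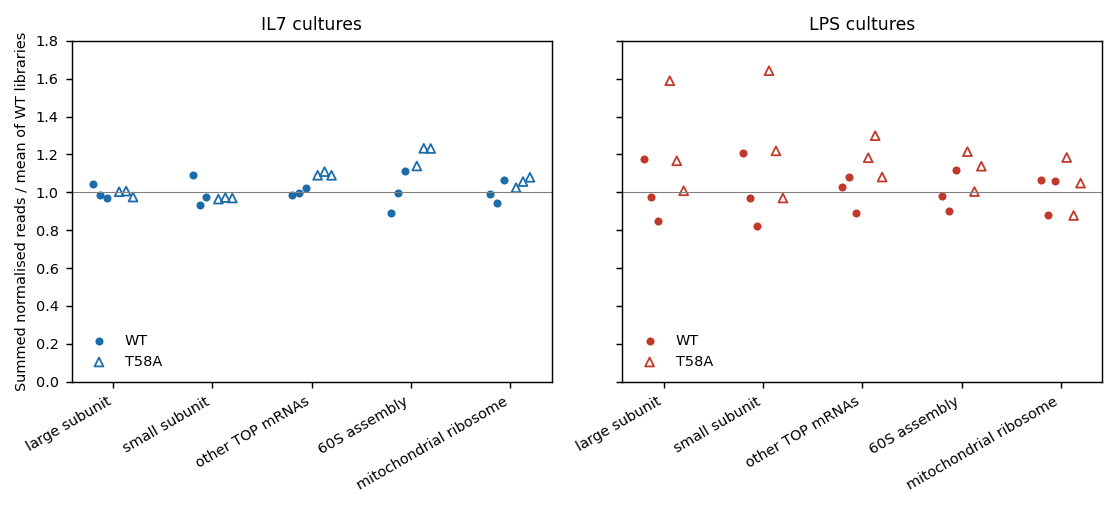
Summed normalised reads of 5 gene groups in each library, divided by the mean of the 3 WT libraries of the same culture (filled circles, WT; open triangles, T58A; LPS T58A in the order first unnumbered, second unnumbered, T58A 3). In IL7 cultures the large subunit sums of the genotypes overlap while the assembly factor sums of T58A lie above WT, and in LPS cultures the first unnumbered T58A library has the highest large and small subunit sums.

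MYC binds DNA at E-boxes, of which CACGTG (the same on both strands) is the best known form, so the promoters were searched for it. RefSeq promoter stretches (GRCm38.p6, 250 bases before to 50 after the start) were found for 35 of the 46 members. CACGTG occurred in 5 of the 35, which is 14.3%, against 8.09% of 27025 genes. Those 27025 exceed the 24015 genes measured here and were not limited to expressed genes, unlike the members. The difference rests on 5 genes and was not tested. The 5 were Rpl13a, Rpl14, Rpl19, Rpl23 and Rpl34. In 3 of these genes (Rpl13a, Rpl14 and Rpl34) the stretch around the E-box lies wholly before each start site it was found with. For Rpl19 this holds at a start site with the E-box from base −233, but not at another with it from base −19. The 60 bases are shown for Rpl13a and Rpl14, which have the higher levels, with the E-box in capitals.
Rpl13a: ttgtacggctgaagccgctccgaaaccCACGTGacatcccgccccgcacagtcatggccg
Rpl14: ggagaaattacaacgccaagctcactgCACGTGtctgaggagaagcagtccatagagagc
The first lies at chr7:45128913-45128972 on the minus strand, with the E-box from base −200, and the second at chr9:120571322-120571381 on the plus strand, with the E-box from base −168, both counted from the start site. Of these 5 genes, Rpl14 and Rpl19 had no overlap between the genotypes in LPS cultures, and Rpl13a, at 12079, 8105 and 7356 normalised reads in WT and 14228, 11092 and 8502 in T58A, overlapped through WT 1. The other two, Rpl23 and Rpl34, overlapped with changes of 0.03 and −0.02, and over all genes 3.1% were higher without overlap. A C followed by 4 pyrimidines at the annotated start, the form of a TOP motif, was found in 7 members, which is 20% of 35, against 3.01% of all genes. This search needs the annotated start to be exact to the base, so members without a match may still carry the motif.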

How the data were processed

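Per the submitters' processing notes, reads were handled with bcl2fastq 1.8.4, TopHat2 2.1.0, HTSeq 0.6.1 and DESeq2 on mm10. The authors deposited a normalised signal per gene and library. Multiplied by a single factor for each library, 100% of its values came out as whole reads (tolerance 0.001). They also deposited a log2 fold change and a p-value, raw and adjusted, for T58A against WT. These were used here only where named. Genes were filtered with filterByExpr of edgeR 4.0.16 (minimum count 10, minimum total 15) and tested with limma 3.58.1 (trend, R 4.3.3) on log2 of the value plus 1, so folds of low genes are understated. Over all genes tested, same-numbered IL7 libraries deviated with correlations of 0.41, 0.15 and 0.40. IL7 libraries were fitted with the pair as a block, because the titles number the pairs. Earlier work on these data had also found the deposited p-values to come from a fit with that block. LPS libraries were fitted without one, because 2 columns share a header and assigning them by their values was avoided. Over all genes tested, the LPS correlations were 0.34, 0.66 and 0.54 with the first column beside WT 1. They were −0.23 and −0.22 for the first 2 pairs when exchanged. Alternatives were other scalings (total reads, TMM), pseudocounts, filters, DESeq2 1.42.0, edgeR, other blocks and leaving out each library, and edgeR and DESeq2 with the LPS block were added after seeing the data. Where a library is left out of a fit with blocks, its partner adds nothing to the change. Copies were found with BLAST 2.17.0 and 50-base words in GENCODE M21 transcripts, which may not be the annotation the authors used. Members, lists and tests were chosen with earlier results of these data known. Values per library are given for called members, for up to 5 per direction and culture with the smallest p, and for members set by role, level per length or unique share. Rpl32 and, beyond these, Rpl13a, Rpl14, Rpl17, Rpl18, Rpl19, Rpl27 and Rpl35 were chosen after their values were seen. A single member enters every count but is not reported here by name. The fits were tested on simulated data, and limits from counts cover counting error only. Plots used matplotlib 3.10.9 (Python 3.11.15).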

Additional observations from a re-analysis of the deposited data

Results flagged for a closer look

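In 5 large subunit genes the T58A change differed between the cultures when the pair was a block and the first unnumbered T58A library was placed with WT 1 (LPS change minus IL7 change, limma, adjusted over 12184 genes). The difference was 1.09 on the log2 scale for Rpl12 (adjusted p = 0.0387), 0.58 for Rpl22 (0.0240), 0.76 for Rpl32 (0.0189), 0.75 for Rpl6 (0.0147) and 0.75 for Rpl7 (0.0101), beside 3.06% of all genes called. In all 5 the IL7 change was below 0 and the LPS change above it. Without a block, or with the unnumbered libraries exchanged, 0 of the 5 passed, and the cause was not tested.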

How the results depend on the processing

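Under other scalings, pseudocounts and filters, each of the 3 comparisons kept its counts of called members, and its median stayed within 1 SD of the library medians. With DESeq2 the IL7 count of lower members was 0 and the LPS count of higher members 1. In the fit without the replicate block the IL7 count of lower members was 0, where 0 of 11604 genes were called. With pair 2 left out the IL7 counts were 1 higher and 2 lower, where 775 of 11610 genes were called. With single libraries left out, the IL7 counts ran from 1 to 3 higher and from 0 to 7 lower. In those fits the genes called ran from 738 of 11833 (without T58A 2) to 1435 of 11818 (without T58A 1). The LPS count of higher members ran from 0 to 1, where 0 to 6 of all genes were called. The median difference between the cultures ran from 0.21, without the first unnumbered library, to 0.68. Rpl3 in IL7 cultures ran from −0.42, called lower, when either library of pair 1 was left out, to 0.33. With the replicate block in LPS cultures, first unnumbered library with WT 1, higher members numbered 1 by limma, 3 by edgeR and 12 by DESeq2, and 5 members were called in the difference between the cultures. With the columns exchanged all were 0 by limma. The causes were not tested. Depth limits low members most: Rpl29 had 4 to 16 reads and Rpl34 10 to 36 in any library.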

Other observations

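Several near-identical copies of large subunit genes lie inside transcripts of genes with other functions that had values of their own. Wdr89, whose transcript holds a copy of Rplp2, stood at 116 in WT and 167 in T58A in IL7 cultures (mean normalised reads, n = 3) and at 34.4 and 48.2 in LPS cultures. Uimc1, with a copy of Rpl29, stood at 547 and 599.8 in LPS cultures and at 871 and 752 in IL7 cultures, the latter above the 10.9 and 9.58 of Rpl29 itself. Ciapin1, with a copy of Rpl7a, stood at 645 and 678 in IL7 cultures and at 266 and 194 in LPS cultures. Gm15421, a pseudogene of Rpl22l1, stood at 604 and 646 in IL7 cultures and at 745 and 904 in LPS cultures, beside 440.4 and 437 and then 499 and 633 for Rpl22l1, whereas Gm12191 and Rpl34-ps1 were listed at 0 throughout.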
